A study of Mus musculus with 16 samples.

Results

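The integrated stress response genes described here are the 10 rows of the read count table whose symbol is Atf4, Ddit3, Trib3, Chac1, Atf5, Asns, Sesn2, Ddit4, Nupr1 or Ppp1r15a. All 10 were found among the 19457 genes of the table, and all 10 passed the filter on low counts. They were measured by RNA sequencing of mouse striatum in 8 groups of 2 libraries, 16 libraries in all. The groups were wild-type mice (WT) and mice labelled GS, read as carriers of the LRRK2 G2019S change that the series title names, each in 4 states: intact striatum, and striatum taken 6 h, 3 d or 15 d after ATP. Injury was made under tribromoethanol anaesthesia by injecting 0.8 µl of 500 mM ATP into the striatum on 1 side. ATP is a molecule that damaged cells release. Each injected group was compared with intact striatum of its own genotype, so the needle, the injected volume, the anaesthesia and ATP cannot be told apart. Strain, age, sex, whether GS is a knock-in or a transgene, and any pooling of animals are not stated in the labels. These labels call the replicates biological but name no animals, so p-values measure the spread between these samples, which may be technical.

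The integrated stress response begins when kinases that sense viral RNA, unfolded protein, haem shortage or amino acid shortage phosphorylate the translation factor eIF2. Most protein synthesis then slows, while the mRNAs of ATF4 and ATF5 are translated more, so much of the control of these factors does not show in mRNA level. ATF4 acts with C/EBP and other bZIP partners on genes for amino acid supply, for cell death and for feedback that restores translation. In the brain the response is known from ischaemia, trauma and neurodegeneration.

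Total counts ran from 49220578 to 63948110 per library, and replicates of a group differed by more than counting noise, so the spread between samples set the precision. Levels are in CPM, the usual scaling of a gene's reads to the total of its library, here with TMM factors. Striatal identity was clear from projection neuron markers, since the 7 used (Drd1, Drd2, Adora2a, Ppp1r1b, Rgs9, Penk and Tac1) summed to between 4173 and 6744 CPM in every library. Summed cortical neuron markers (8 of 8 in the table) were 343 CPM in WT intact replicate 1 against 165 CPM in replicate 2. Choroid plexus and ependyma markers (6 of 6) summed to 410 CPM in GS intact replicate 1 against 90.4 CPM in replicate 2.

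Per kilobase of exon, Atf4 was the most abundant member, with a median of 27.1 RPKM (the CPM divided by exon length in kilobases) over the 16 libraries, followed by Asns at 22.2 RPKM, Ddit4 at 18.9 RPKM and Ddit3 at 14.0 RPKM. Atf5 at 7.22 RPKM and Ppp1r15a at 5.46 RPKM were intermediate. Nupr1 at 2.30 RPKM, Sesn2 and Chac1 at 1.44 RPKM each, and Trib3 at 0.694 RPKM were low. Trib3 still rested on 53 to 176 reads per library.

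**Figure D1:**
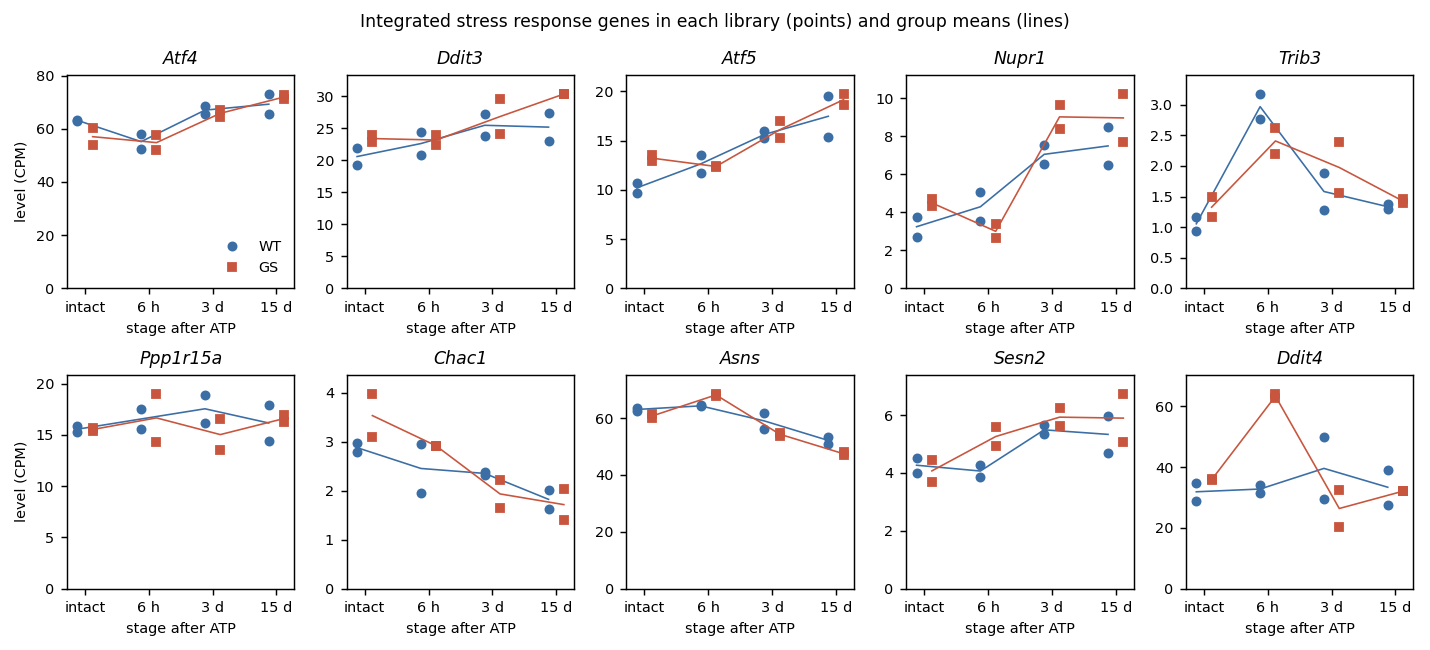
Level in CPM (linear axes from 0) of each of the 10 genes against stage, with 1 point per library (WT circles, GS squares) and lines through the means of the 2 libraries. Trib3 is highest at 6 h in both genotypes, Ddit4 is high in the 2 GS libraries at 6 h, and Nupr1 and Atf5 are higher at 3 d and 15 d than in intact striatum.

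Promoters were searched because ATF4 and CHOP bind, with C/EBP partners, a composite element whose core was written as TGATGNAA and looked for on both strands from 250 bases before to 50 after each RefSeq start. The string was found in 4 of the 10 genes, and in 1304 of all 32851 promoters (3.97%). Those 4 genes, Chac1, Trib3, Asns and Nupr1, are shown since their RNA moved in different directions. Each line gives 100 bases of GRCm38.p6 5′ to 3′ on the gene's own strand, with the matching string in capitals, which reads as the reverse complement where the match is on the other strand. The windows are chr2:119351003-119351102 on the plus strand for Chac1, and on the minus strand chr2:152344031-152344130 for Trib3, chr6:7693180-7693279 for Asns and chr7:126625527-126625626 for Nupr1.
Chac1: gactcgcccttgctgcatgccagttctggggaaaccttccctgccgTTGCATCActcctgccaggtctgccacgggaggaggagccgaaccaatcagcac
Trib3: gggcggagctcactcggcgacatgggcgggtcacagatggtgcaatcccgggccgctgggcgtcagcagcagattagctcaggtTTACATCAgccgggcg
Asns: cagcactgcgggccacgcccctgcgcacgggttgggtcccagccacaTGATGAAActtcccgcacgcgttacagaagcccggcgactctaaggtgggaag
Nupr1: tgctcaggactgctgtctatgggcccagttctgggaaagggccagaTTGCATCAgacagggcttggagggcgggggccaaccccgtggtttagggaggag
Counted from the start site, the string began at -193 in Chac1, -110 in Nupr1 and -23 in Asns, and at 15 within the transcript of Trib3. Chac1 and Nupr1 carry the same 8 letters. With the 250 bases before the start alone, Trib3 drops out and 3 genes remain, against 3.45% of promoters. The full endoplasmic reticulum stress element, searched on both strands in the same windows, was found in 0 of the 10 genes and in 0.119% of promoters. A match is a string of letters in a window and was not tested as a binding site.

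The members did not respond to injury as 1 block. Trib3 rose at 6 h in both genotypes and Ddit4 in GS, Nupr1 rose at 3 d and 15 d in both genotypes, Atf5 rose at those stages except in GS at 3 d, Asns fell at 15 d in both genotypes, Chac1 fell at 3 d and 15 d in GS, and Ppp1r15a passed no test. At 6 h, 1 of 10 members passed in WT, where 4.09% of all genes tested passed, and 2 of 10 in GS, against 13.8%. At 3 d, 2 of 10 passed in WT (27.4% of all genes) and 3 of 10 in GS (35.1%), near the shares of all genes. At 15 d, 3 of 10 passed in WT (25.4% of all genes) and 7 of 10 in GS (37.1%). The median member moved by 0.07 (WT) and 0.04 (GS) on the log2 scale at 6 h, 0.31 and 0.20 at 3 d, and 0.21 and 0.22 at 15 d, while the median of all genes lay between -0.02 and 0.01. By direction, the shares of all genes that rose were 2.54%, 14.7% and 14.2% in WT at 6 h, 3 d and 15 d and 7.47%, 18.6% and 19.4% in GS, and those that fell were 1.55%, 12.7% and 11.2% in WT and 6.37%, 16.4% and 17.6% in GS. Of the members, 2 rose and 1 fell in WT at 15 d, 2 rose and 1 fell in GS at 3 d, and 5 rose and 2 fell in GS at 15 d, while those called at the other times all rose. Calls were made at an adjusted p under 0.05 in edgeR's quasi-likelihood test, and a value with ± gives the edgeR log2 fold change and its standard error (n = 2 libraries per group).

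**Figure D2:**
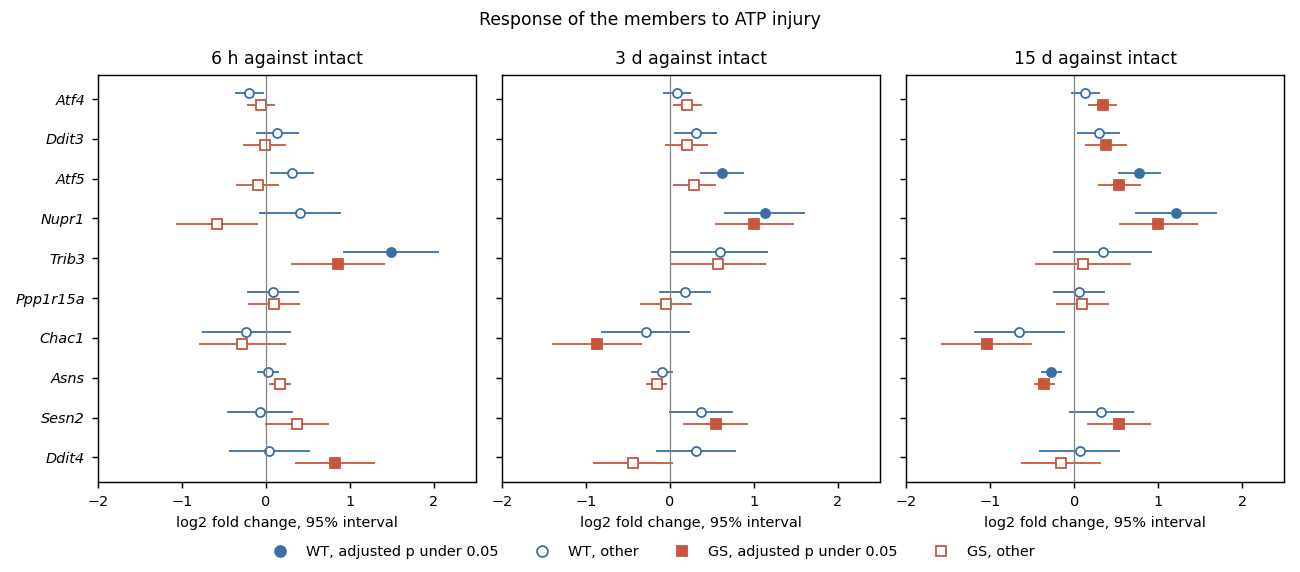
Log2 fold change of each gene against intact striatum of the same genotype at 6 h, 3 d and 15 d, with 95% intervals from the edgeR fit (WT circles, GS squares, filled where the adjusted p was under 0.05). Of 60 values 18 passed: Trib3 in both genotypes and Ddit4 in GS at 6 h, and the others at 3 d or 15 d.

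Trib3 encodes a pseudokinase that ATF4 and CHOP induce and that binds AKT and ATF4 in a feedback loop (NCBI Gene 228775, chr2:152337425-152344060). Its level in intact striatum was 0.944 and 1.16 CPM in WT and 1.16 and 1.49 CPM in GS. At 6 h it was 2.76 and 3.18 CPM in WT and 2.20 and 2.62 CPM in GS, so every 6 h library lay above every intact library. The rise was 2.82-fold in WT (95% interval 1.89 to 4.18, edgeR adjusted p = 0.00907) and 1.81-fold in GS (1.23 to 2.68, adjusted p = 0.0417). At 3 d Trib3 was 1.29 and 1.88 CPM in WT and 1.55 and 2.40 CPM in GS, and at 15 d it was 1.29 to 1.46 CPM over the 4 libraries. Neither later stage passed the test against intact striatum.

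Ddit4 encodes REDD1, an inhibitor of mTORC1 that stress, hypoxia and glucocorticoids induce (NCBI Gene 74747, chr10:59949675-59951770). At 6 h it was 64.0 and 62.7 CPM in GS and 31.4 and 34.2 CPM in WT. In intact striatum it was 35.7 and 35.9 CPM in GS and 28.9 and 34.8 CPM in WT. The 2 GS libraries at 6 h were thus the highest of all 16. In GS the rise from intact was 1.77-fold (95% interval 1.27 to 2.46, edgeR adjusted p = 0.0243), while in WT the change was 0.04 ± 0.22 (adjusted p = 0.947). At 3 d the replicates were far apart, at 49.7 and 29.4 CPM in WT and 32.3 and 20.4 CPM in GS. Without WT 3 d replicate 2 the WT value was 0.64 (edgeR adjusted p = 0.0485), and without GS 3 d replicate 1 the GS value was -0.81 (adjusted p = 0.0246), so those calls turn on 1 library each. At 15 d it was 27.6 to 39.0 CPM, within or near the intact range.

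Leaving out 1 library left 1 in its group, and fewer of all genes passed in such fits too. A 6 h call lost that way is thus not a result about the member. The Trib3 call in WT was lost without WT intact replicate 1 (1.35) or WT 6 h replicate 2 (1.39). It was also lost without both of these and WT 15 d replicate 1, each the higher in cortical markers of its group (1.24). In GS the Trib3 call was lost without any 1 of the 4 libraries compared (0.69 to 1.04). The same held for Ddit4 in GS, whose value stayed at 0.81 to 0.84. Among markers, the 4 erythrocyte genes in the table (of 5 listed) summed to 27.7 to 58.9 CPM at 6 h against 3.34 to 5.82 CPM in intact striatum, and endothelial markers (6 of 6) to 60.7 to 75.4 against 83.8 to 111 CPM. Their part in the 6 h values was not tested.

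Among the transcription factors, Atf4 itself moved little. It encodes the central activator of the response (NCBI Gene 11911, chr15:80255184-80257545) and was 63.3 and 63.0 CPM in WT and 53.8 and 60.2 CPM in GS intact striatum. At 6 h the 4 libraries lay between 52.0 and 58.1 CPM, the WT change being -0.20 ± 0.080 (edgeR adjusted p = 0.179). At 15 d it was 65.4 and 73.1 CPM in WT and 72.7 and 71.2 CPM in GS, and the GS rise of 0.34 ± 0.079 passed (1.26-fold, adjusted p = 0.00425). The WT value of 0.13 ± 0.079 did not pass (adjusted p = 0.244).

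Ddit3 encodes CHOP, a factor that ATF4 induces and that is linked to cell death (NCBI Gene 13198, chr10:127290793-127296291). It was 21.9 and 19.2 CPM in WT and 24.0 and 22.8 CPM in GS before injury. Each GS library at 15 d held 30.3 CPM. That rise was 0.38 ± 0.12 (edgeR adjusted p = 0.0230). WT at 15 d, at 22.9 and 27.4 CPM, showed 0.29 ± 0.12 (adjusted p = 0.0914). At 6 h the values were 0.14 ± 0.12 in WT and -0.01 ± 0.12 in GS, and neither passed.

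Atf5 encodes a relative of ATF4 with roles in mitochondrial stress and neural progenitors (NCBI Gene 107503, chr7:44812256-44816658). Intact striatum held 9.67 and 10.7 CPM in WT and 12.9 and 13.5 CPM in GS. Later, at 3 d, it was 15.3 and 15.9 CPM in WT and 17.0 and 15.2 CPM in GS. At 15 d it was 15.4 and 19.6 CPM in WT and 18.6 and 19.7 CPM in GS, so all later libraries lay above all intact ones. The WT rise was 0.62 ± 0.12 at 3 d (edgeR adjusted p = 0.00208) and 0.78 ± 0.12 at 15 d (adjusted p = 0.000467). GS passed at 15 d (0.54 ± 0.12, adjusted p = 0.00281) and not at 3 d (0.29 ± 0.12, adjusted p = 0.0787).

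Nupr1 encodes a small stress-induced nuclear protein that ATF4 can induce (NCBI Gene 56312, chr7:126623246-126625470). It was 2.71 and 3.77 CPM in WT and 4.68 and 4.31 CPM in GS before injury. By 3 d it had reached 6.56 and 7.54 CPM in WT and 8.40 and 9.65 CPM in GS. At 15 d it was 6.50 and 8.50 CPM in WT and 7.71 and 10.2 CPM in GS. No later library overlapped an intact one. The rises were 1.12 ± 0.23 and 1.21 ± 0.23 in WT at 3 d and 15 d, and 1.00 ± 0.22 at each stage in GS, with edgeR adjusted p between 0.00156 and 0.00276. At 6 h it was 5.05 and 3.54 CPM in WT and 2.62 and 3.37 CPM in GS, with no call.

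Sesn2, which encodes a leucine sensor that restrains mTORC1, was 4.01 and 4.53 CPM in WT and 3.68 and 4.46 CPM in GS intact striatum (NCBI Gene 230784, chr4:132492804-132510456). In GS it was 5.61 and 6.24 CPM at 3 d, then 5.07 and 6.72 CPM at 15 d, above both intact libraries. The GS rises were 0.54 ± 0.18 at 3 d (edgeR adjusted p = 0.0294) and 0.53 ± 0.18 at 15 d (adjusted p = 0.0303). The WT values of 0.36 ± 0.18 and 0.32 ± 0.18 did not pass.

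The members that fell late were an enzyme of amino acid supply and one of glutathione breakdown. Asns encodes asparagine synthetase, a standard ATF4 target (NCBI Gene 27053, chr6:7675165-7693209), and its level was 63.4 and 62.7 CPM in WT and 60.0 and 61.6 CPM in GS intact striatum. At 15 d it was 53.4 and 50.9 CPM in WT and 48.0 and 46.9 CPM in GS, below every intact library. It fell by 0.27 ± 0.060 in WT (edgeR adjusted p = 0.00453) and by 0.36 ± 0.061 in GS (adjusted p = 0.000397) on the log2 scale. The 6 h libraries stood at 64.1 to 68.4 CPM, with no call.

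Chac1, which encodes an enzyme that cleaves glutathione, is induced by ATF4 in cultured cells (NCBI Gene 69065, chr2:119351242-119354326). It was 2.97 and 2.78 CPM in WT and 3.97 and 3.10 CPM in GS intact striatum. In GS it was 1.65 and 2.22 CPM at 3 d, then 1.39 and 2.04 CPM at 15 d. It fell by 0.87 ± 0.25 at 3 d (edgeR adjusted p = 0.0144) and by 1.04 ± 0.25 at 15 d (adjusted p = 0.00483). WT stood at 2.01 and 1.63 CPM at 15 d (-0.66 ± 0.25, adjusted p = 0.0707), below both WT intact libraries.

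Ppp1r15a encodes GADD34, the phosphatase subunit that reverses eIF2 phosphorylation (NCBI Gene 17872, chr7:45522917-45526268). Its 16 values ran from 13.5 to 19.0 CPM with overlap between all stages. In the 6 injury contrasts its 95% intervals stayed between -0.36 and 0.48 on the log2 scale. Changes within that range cannot be told from none with these libraries.

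Several of the late calls in GS were lost without 1 library, where a group held 1 library and fewer of all genes passed too. That drop varied between fits, and without GS 3 d replicate 1 nearly as many genes passed in GS at 3 d as with all libraries. Without GS intact replicate 1 the values at 15 d were 0.26 for Atf4 (edgeR adjusted p = 0.0615), 0.41 for Ddit3 (0.0626), -0.85 for Chac1 (0.0508) and 0.40 for Sesn2 (0.204), and at 3 d -0.68 for Chac1 (0.118) and 0.41 for Sesn2 (0.203), the values in brackets being adjusted p. The same calls were lost for Ddit3 without GS intact replicate 2 (0.34, adjusted p = 0.122) or GS 15 d replicate 1 or 2 (0.38 each, 0.0812 and 0.0845), for Chac1 without GS 15 d replicate 1 (-0.79, 0.0657) or GS 3 d replicate 1 (-0.67, 0.104), for Sesn2 without GS 15 d replicate 2 (0.32, 0.297) or GS 3 d replicate 2 (0.46, 0.152), and for Asns in WT without WT 15 d replicate 2 (-0.24, 0.0519). With a cortical marker covariate, calls were lost for Nupr1 in WT at 3 d (0.69, edgeR adjusted p = 0.0572), and in GS for Trib3 at 6 h (0.86, 0.0592), Chac1 at 3 d (-0.70, 0.0875), Sesn2 at 3 d (0.42, 0.153) and 15 d (0.40, 0.183) and Ddit3 at 15 d (0.28, 0.147). Under it 12.1% of all genes passed in WT at 3 d. In GS 14.4%, 26.9% and 27.2% passed at 6 h, 3 d and 15 d. With a choroid plexus marker covariate, Asns in WT at 15 d did not pass (-0.27, edgeR adjusted p = 0.0812), where 10.8% of all genes passed. When only the groups compared were fitted, Sesn2 in GS did not pass at 3 d (0.55, edgeR adjusted p = 0.0571) or 15 d (0.55, adjusted p = 0.0511). Of the 18 injury calls, 7 passed under every alternative planned: Atf5 in WT at 3 d and 15 d and in GS at 15 d, Nupr1 in WT at 15 d and in GS at 3 d and 15 d, and Asns in GS at 15 d. Ddit3, Atf5, Nupr1 and Ppp1r15a overlap other genes (Mbd6 and Mars1, Nup62 and Il4i1b, Gm39087, and Tulp2), and since strand use is not given their reads cannot be told apart there.

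Between 3 d and 15 d no member passed, where 3.20% of all genes passed in WT and 2.10% in GS. DESeq2 and limma-voom called 0 as well, and at an unadjusted p under 0.05 edgeR gave 1 member in each genotype, Asns, with -0.18 ± 0.060 in WT (adjusted p = 0.124) and -0.20 ± 0.061 in GS (adjusted p = 0.101).

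The late changes ran beside a change in cell markers. The 8 microglia and macrophage markers, all in the table and none at 0, summed to 293 to 299 CPM in WT and 299.7 to 314.5 CPM in GS intact striatum, and to 200.2 to 217 CPM over both genotypes at 6 h. They reached 542 to 818 CPM in WT and 851 to 1038 CPM in GS at 3 d, and 612 to 899 CPM in WT and 908 to 1212 CPM in GS at 15 d. Over the 16 libraries, which share the stages, Pearson's r of the log2 CPM of each member with the mean log2 CPM of these markers was 0.93 for Nupr1, 0.85 for Atf4, 0.84 for Atf5, 0.75 for Ddit3 and 0.74 for Sesn2, and -0.90 for Asns and -0.71 for Chac1. It was -0.27 for Trib3, -0.49 for Ddit4 and -0.01 for Ppp1r15a. Striatal projection neuron markers went the other way, from 5318 to 6744 CPM over the intact libraries to 4173 to 4510.4 CPM over those at 15 d. Astrocyte markers (6 of 6) rose, from 4180 to 4344 CPM over the intact libraries to 6138 to 6546 CPM over those at 15 d. The 4 monocyte-derived macrophage markers in the table (of 6) summed to 6.3 to 8.63 CPM in intact striatum and 133 to 478 CPM at 15 d. With astrocyte markers Pearson's r was 0.89 for Nupr1, 0.88 for Atf5, 0.80 for Atf4 and Sesn2 and 0.73 for Ddit3. It was -0.83 for Asns and -0.78 for Chac1. Pericyte and fibroblast markers gave 0.95 for Nupr1 and -0.90 for Asns, and weaker values than microglia and macrophage markers for Atf4, Atf5, Ddit3, Sesn2 and Chac1. Such correlations were thus not particular to the microglia and macrophage markers. With the microglia and macrophage score as a covariate, an alternative added after the data were seen, no member passed at 3 d or 15 d in either genotype. Few genes of any kind passed there: 1.39% and 0.149% of all genes in WT and 0.0319% and 0.0372% in GS at 3 d and 15 d, so the loss is not a result about the members. Under it Chac1 in GS stood at -1.20 at 3 d and -1.39 at 15 d, Atf5 in WT at 0.38 and 0.52, and Nupr1 in GS at -0.16 and -0.25. Stage and marker level cannot be told apart in this design, and in whole striatum a change in the number of cells of a type and a change in RNA per cell cannot be told apart either.

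**Figure D3:**
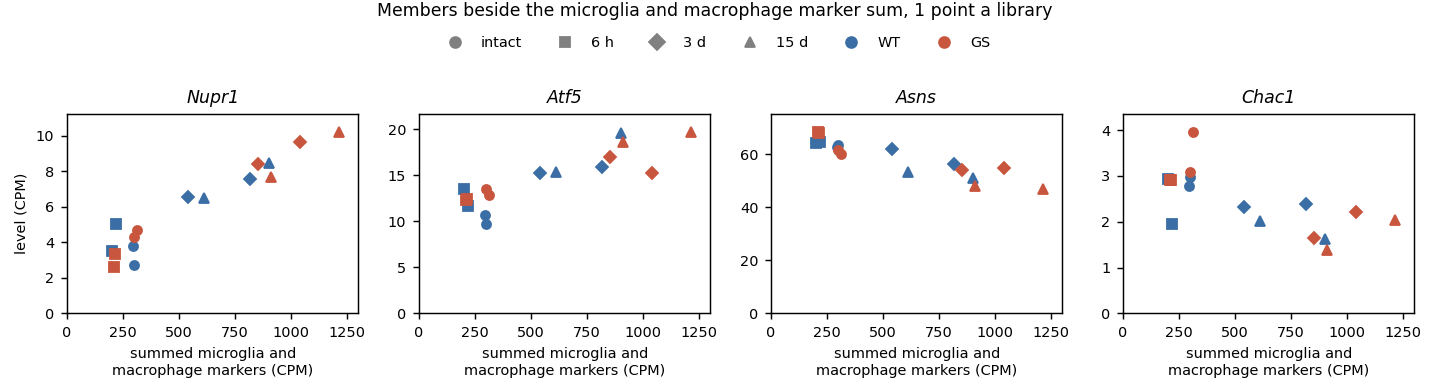
Level in CPM of Nupr1, Atf5, Asns and Chac1 (vertical axes, from 0) against the summed CPM of 8 microglia and macrophage markers, 1 point per library, with colour for genotype and symbol for stage. From the lowest marker sum (200.2 CPM) to the highest (1212 CPM) Nupr1 and Atf5 are higher and Asns and Chac1 lower, and the 6 h and intact libraries lie apart from those of 3 d and 15 d.

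Several members varied together over the libraries. Of 45 pairs, 7 had a Pearson r above 0.7 over the 16 libraries and 7 had one below -0.7, given as a description since the libraries share stages. The highest was Atf5 with Nupr1 (0.86), and Ddit3 went with Atf5 (0.81). Asns was opposed to Nupr1 (-0.86), Atf5 (-0.85) and Atf4 (-0.82), and ran with Chac1 (0.72). Atf4 and its target Ddit3 gave 0.58. Among 15350 genes with a mean of at least 1 CPM, those most like Atf4 were Plin3 (0.94), Pprc1 (0.94) and Ptpn18 (0.94), those most like Ddit3 were Rps27a-ps2 (0.91), Gm5905 (0.91) and Gm3756 (0.90), and those most like Trib3 were Sbf2 (0.92), Ubr7 (0.91) and Skil (0.86).

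The rest of the pathway was read from lists of its other parts, by counts against the same background shares. A list of 13 genes held the eIF2 kinases, eIF2 and eIF2B, and also Ppp1r15b, Dnajc3 and Impact. None passed at 6 h in WT and 1 rose in GS, Ppp1r15b (0.35 ± 0.061). At 3 d 4 rose in WT, and in GS 4 rose and 1 fell. At 15 d 3 rose in WT, and in GS 3 rose and 2 fell. At 3 d 30.8% of the list passed in WT and 38.5% in GS, near the 27.4% and 35.1% of all genes. At 15 d the shares were 23.1% and 38.5%, near 25.4% and 37.1%. Eif2ak2, the kinase PKR that binds double-stranded RNA, rose by 1.24 ± 0.22 in WT and 1.67 ± 0.22 in GS at 3 d. Dnajc3, an inhibitor of these kinases, rose by 0.76 ± 0.12 in WT and 0.86 ± 0.12 in GS at 3 d. Ppp1r15b rose by 0.38 ± 0.061 in WT and 0.44 ± 0.061 in GS at 3 d, and by 0.42 ± 0.061 and 0.45 ± 0.061 at 15 d. The list's median lay between -0.02 and 0.06 on the log2 scale over the 6 injury contrasts.

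All 5 bZIP partners of ATF4 measured (Cebpa, Cebpb, Cebpd, Cebpg and Atf3) rose at 3 d and at 15 d in both genotypes. At 6 h none passed in WT and 2 rose in GS. Of all genes, 14.7% and 14.2% rose in WT at 3 d and 15 d, and 18.6% and 19.4% in GS. In GS at 6 h 7.47% of all genes rose. Atf3, an early stress factor, rose by 4.43 ± 0.56 in WT and 4.19 ± 0.53 in GS at 3 d, and by 4.72 ± 0.56 and 4.78 ± 0.53 at 15 d. Cebpd, an acute-phase factor, rose by 2.10 ± 0.29 in WT and 1.90 ± 0.29 in GS at 3 d. The list's median was 1.36 in WT and 1.07 in GS at 3 d, against -0.01 over all genes in each.

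Close relatives of the members were read in the same way. At 6 h Trib2 fell by 0.69 ± 0.12 in WT and 0.79 ± 0.12 in GS, while its relative Trib3 rose. At 3 d Trib2 rose in GS by 0.38 ± 0.12, and Trib1 rose by 0.97 ± 0.18 in WT and 1.16 ± 0.18 in GS. Trib1 also rose in GS at 15 d, by 0.92 ± 0.18. Sesn1, a p53 and FOXO target, rose by 0.64 ± 0.076 and 0.55 ± 0.076 at 6 h, when Sesn2 passed in neither genotype. Ddit4l, the relative of Ddit4, fell by 0.54 ± 0.14 in WT and 1.04 ± 0.14 in GS at 3 d, and by 1.08 ± 0.14 and 1.48 ± 0.14 at 15 d. Of the 6 relatives listed, 2 rose and 1 fell in WT at 6 h, and 1 rose and 2 fell in GS. Of all genes, 2.54% rose and 1.55% fell there in WT, and 7.47% and 6.37% in GS. At 3 d 2 relatives rose and 1 fell in each genotype, where 14.7% of all genes rose and 12.7% fell in WT, and 18.6% and 16.4% in GS. At 15 d 1 rose and 1 fell in WT, and 2 rose and 1 fell in GS. Of all genes, 14.2% rose and 11.2% fell in WT at 15 d, and 19.4% and 17.6% in GS.

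Genes for amino acid supply were read from 3 lists. Of 12 enzymes of serine, proline, one-carbon and transsulfuration metabolism, 5 rose at 3 d and 5 at 15 d in WT, and 3 and 3 in GS, with none falling, where 14.7%, 14.2%, 18.6% and 19.4% of all genes rose. At 6 h none passed in WT and 1 fell in GS. Aldh1l2, a mitochondrial folate enzyme, led with 1.79 ± 0.28 in WT and 2.10 ± 0.28 in GS at 3 d. Of 9 amino acid transporters, 5 rose in WT and 6 in GS at 3 d, and 4 in each at 15 d. Slc7a11, the cystine importer, rose by 0.76 ± 0.12 in WT and 1.19 ± 0.12 in GS at 3 d. The tRNA synthetases, 13 genes with the tRNA exporter Xpot, gave none in WT and 2 higher in GS at 6 h, where 7.47% of all genes rose in GS. At 3 d 3 were higher in WT, and 2 higher and 1 lower in GS. At 15 d 1 was lower in WT, and 1 higher and 3 lower in GS. These were 23.1% of the list in each genotype at 3 d, below the 27.4% and 35.1% of all genes that passed. At 15 d they were 7.69% in WT and 30.8% in GS, below 25.4% and 37.1%. Yars was among those that fell at 15 d, by 0.32 ± 0.060 in WT and 0.46 ± 0.060 in GS.

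Of 15 other reported ATF4 or CHOP targets, 12 were tested. At 6 h 1 rose in WT and 2 in GS. At 3 d 3 rose and 2 fell in WT, and 6 rose and 3 fell in GS. At 15 d 4 rose in WT, and 5 rose and 2 fell in GS. Of all genes, 4.09%, 27.4% and 25.4% passed in WT at 6 h, 3 d and 15 d. In GS 13.8%, 35.1% and 37.1% passed. Pmaip1, which encodes the cell death protein NOXA, rose in all 6 injury contrasts, from 0.88 ± 0.20 in WT at 6 h to 1.69 ± 0.20 in GS at 6 h. Eif4ebp1, a repressor of cap-dependent translation, rose by 1.68 ± 0.27 in WT and 1.51 ± 0.27 in GS at 3 d.

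The endoplasmic reticulum chaperones and the IRE1 and ATF6 arms of the unfolded protein response made a list of 18 genes. At 6 h 4 fell in WT and 9 in GS, with none rising, against 1.55% and 6.37% of all genes that fell. At 3 d 15 rose in WT and 14 in GS, with none falling, against 14.7% and 18.6% of all genes that rose. The list's median went from -0.12 at 6 h to 0.40 at 3 d in WT, and from -0.34 to 0.40 in GS. Calr, an ER lectin chaperone, fell by 0.56 ± 0.093 in WT and 0.70 ± 0.093 in GS at 6 h, and Hspa5, the chaperone BiP, rose by 1.30 ± 0.12 in WT at 3 d. At 15 d 6 rose and 1 fell in WT, and 8 rose and 1 fell in GS. Of all genes, 14.2% and 19.4% rose and 11.2% and 17.6% fell there. From 3 d to 15 d 8 of the 18 fell in WT (1.57% of all genes) and 3 in GS (1.02%).

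**Figure D4:**
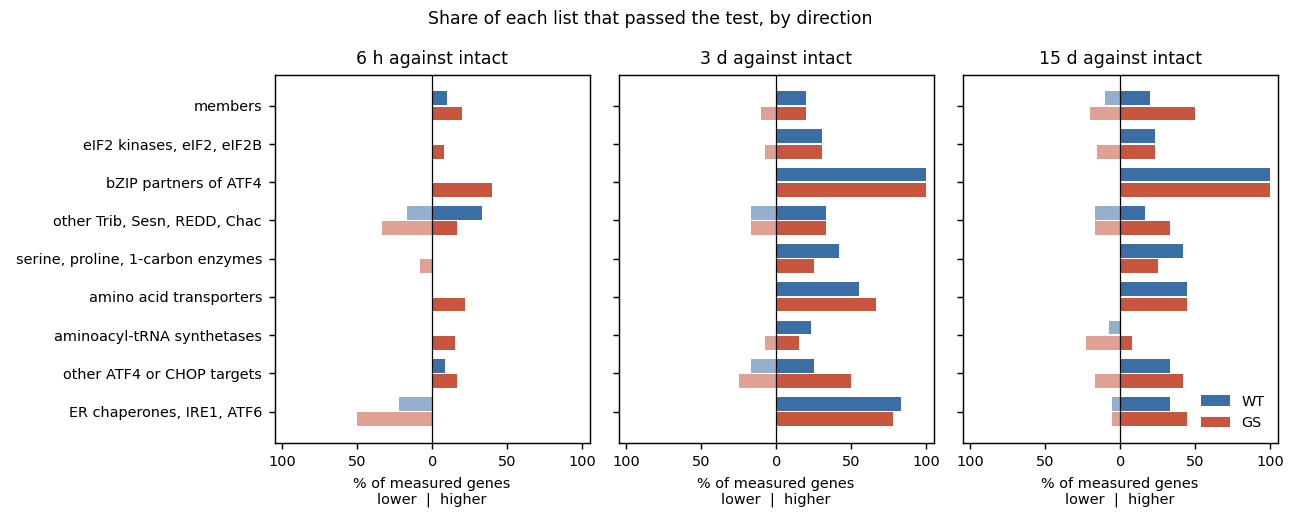
Percent of the measured genes of each list that passed the edgeR test against intact striatum, with higher genes to the right of 0 and lower genes to the left, at 6 h, 3 d and 15 d (WT and GS bars). The ER list has 4 (WT) and 9 (GS) of 18 genes lower at 6 h and 15 and 14 of 18 higher at 3 d, and all 5 bZIP partners are higher at 3 d and 15 d.

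Between genotypes no member passed at any stage. The shares of all genes that passed between GS and WT were 0.0159% in intact striatum, 0.00532% at 6 h, 0.0106% at 3 d, 0.00532% at 15 d and 0.0106% for the mean of the 4 stages. DESeq2 and limma-voom called 0 members as well. At an unadjusted p under 0.05 edgeR gave 1 member in intact striatum (Atf5), 2 at 6 h (Ddit4 and Nupr1), 1 at 3 d (Ddit4), 2 at 15 d (Ddit3 and Asns) and 2 for the mean (Ddit3 and Atf5). The largest difference was Ddit4 at 6 h, with the GS libraries at 64.0 and 62.7 CPM and the WT libraries at 31.4 and 34.2 CPM. This was 1.93-fold higher in GS, or 0.95 ± 0.22 (95% interval 0.47 to 1.43, edgeR adjusted p = 0.321). When only those 4 libraries were fitted, the same difference passed (0.95, adjusted p = 0.000336), as did 0.337% of all genes, so this call differs with the libraries that enter the fit. At 3 d the sign was the opposite, -0.58 ± 0.22 (adjusted p = 0.550), with overlapping groups. Atf5 in intact striatum was 0.37 ± 0.12 higher in GS (adjusted p = 0.320), the 2 GS libraries lying above the 2 WT libraries.

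The response to injury was not shown to differ between genotypes for any member. The interaction passed for 0.0106% of all genes at 6 h and for 0% at 3 d and 15 d, and for no member, with 0 in DESeq2 and limma-voom too. At an unadjusted p under 0.05 edgeR gave 3 members at 6 h (Atf5, Ddit4 and Nupr1), 1 at 3 d (Ddit4) and none at 15 d. At 6 h the response in GS exceeded that in WT by 0.78 ± 0.32 for Ddit4 (95% interval 0.11 to 1.46, adjusted p = 0.469), and the same difference was -0.99 ± 0.32 for Nupr1 (-1.69 to -0.30, adjusted p = 0.382) and -0.40 ± 0.17 for Atf5 (adjusted p = 0.486). For Trib3 it was -0.63 ± 0.37 (-1.43 to 0.16, edgeR adjusted p = 0.635). That interval holds a weaker, an equal and a slightly stronger GS response. For Chac1 at 3 d, which passed against intact striatum in GS alone, it was -0.58 ± 0.35 (adjusted p = 0.587). For Sesn2, Atf4 and Ddit3, which also passed in GS alone, no interaction passed either.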

How the data were processed

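The labels' protocols name RNeasy extraction and TruSeq RNA libraries. What the authors deposited is a table of unnormalised read counts by gene, per the file headers. FastQC 0.11.7 and mm10 are named in the submitters' processing notes. Aligner, counter and strand: not given in the sources used here. No value in the table is 0, so a gene at 0 in any library is not analysed here. Columns marked NT were taken as WT and 0 as intact by elimination.

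The analysis in edgeR 4.0.16 (R 4.3.3) used filterByExpr by group (18813 genes kept, 644 removed), TMM factors (0.947 to 1.03), a quasi-likelihood fit with 1 coefficient per group over all 16 libraries (common biological coefficient of variation 10.1%), 16 contrasts, and p-values adjusted by Benjamini and Hochberg's method across all tested genes, with calls at 0.05. Standard errors were taken as |log2 fold change| over the root of F, and 95% intervals come from them, so both are approximate. The fit was tested on simulated data. Alternatives used RLE factors, DESeq2 1.42.0, limma-voom (limma 3.58.1), other filters, only the groups compared, a replicate block, marker covariates, and libraries left out. RPKM used GENCODE M21 exon lengths, and promoters and gene positions (1-based) are from RefSeq on GRCm38.p6, which is mm10, for all 10 genes. The genes named were every member, up to 3 passing genes per list and contrast, by size of change, and the 3 genes most like Atf4, Ddit3 and Trib3. The members and lists were chosen with earlier results of these data known. A gene of the projection neuron list is not reported here and was left out of its sums.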

Additional observations from a re-analysis of the deposited data

How the results depend on the processing

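There were 160 member values (10 genes, 16 contrasts) and 2580 alternative values. Of the alternatives, 2517 kept their side of the threshold (151 of these changed sign with no call in either). The others were 46 that lost a call with the same sign, 12 that gained one, and 5 that lost one with a change of sign. With a covariate for the cortical marker score the members passing at 3 d numbered 1 in WT and 1 in GS. Of all genes, 12.1% and 26.9% passed there. With only the groups compared, 1 member (Ddit4) passed between genotypes at 6 h, and Sesn2 in GS did not pass at 3 d or 15 d (0.55 each). When WT intact replicate 1, 6 h replicate 2 and 15 d replicate 1 were left out together, Trib3 in WT at 6 h stood at 1.24. Those groups then held 1 library each and few genes of any kind passed at 6 h, so the loss of its call is not a result about Trib3. With the microglia and macrophage score, added after the data were seen, the numbers were 0 in WT at 3 d, 0 in WT at 15 d, 1 in GS at 6 h, 0 in GS at 3 d and 0 in GS at 15 d, where 1.39%, 0.149%, 13%, 0.0319% and 0.0372% of all genes passed. The 5 lost calls with a change of sign were under this score. They were Sesn2 (-0.18) and Nupr1 (-0.16) in GS at 3 d, and Ddit3 (-0.10), Sesn2 (-0.24) and Nupr1 (-0.25) in GS at 15 d. None passed in the new direction (edgeR adjusted p = 0.915 to 0.952). The cause was not tested. Counts of members with 1 library left out are not given, since a group then held 1 library. In the injury contrasts fewer of all genes passed in those fits too.

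Calls gained were Asns in GS at 3 d with RLE factors or either other filter (-0.16 to -0.17, adjusted p = 0.0372 to 0.0480), Nupr1 in GS at 6 h with the cortical score (-0.76, adjusted p = 0.0154), Ddit4 between genotypes at 6 h, and others without 1 library: Ddit4 in WT at 3 d without replicate 2 (0.64) and in GS at 3 d without replicate 1 (-0.81), Trib3 in GS at 3 d without replicate 1 (0.86), Atf4 in GS at 3 d without GS intact replicate 2 (0.29), and Ddit3 in WT without replicate 1 at 3 d (0.41) or 15 d (0.41). The replicate numbers gave little sign of pairing the samples: deviations of same-numbered libraries correlated at -0.0921 to 0.165 over 28 pairs of groups. Of these 3 were over 0.1 and 0 under -0.1, and whether the numbers mark pairs is not stated in the labels. With the replicate block the members passing numbered 1, 2 and 3 in WT at 6 h, 3 d and 15 d and 2, 4 and 7 in GS, and 0 elsewhere, the added call being Atf4 in GS at 3 d (0.21, adjusted p = 0.0353). Of all genes, 4.52%, 28% and 26.2% passed with the block in WT, and 14.4%, 35.3% and 37.4% in GS. Without it the shares were slightly lower, 4.09%, 27.4% and 25.4% in WT and 13.8%, 35.1% and 37.1% in GS. With 2 libraries per group, the spread between samples limits what can be told apart more than depth does.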

Other observations

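Some glucocorticoid-responsive genes, a list that bears on Ddit4, rose at 6 h and 3 d. Of 10 genes 3 rose in WT and 7 in GS at 6 h, with none falling, where 2.54% and 7.47% of all genes rose, and the list's median was 0.49 in WT and 0.90 in GS on the log2 scale. Cdkn1a, a cell cycle inhibitor that is also a p53 target, rose by 1.98 ± 0.17 in WT and 2.43 ± 0.17 in GS. Zbtb16 rose by 1.11 ± 0.25 and 1.33 ± 0.25, and Fkbp5, a chaperone of the steroid receptor, by 0.97 ± 0.18 and 1.14 ± 0.18 (edgeR, all with an adjusted p under 0.05). What induced these genes was not tested. At 3 d 7 rose in WT (median 0.68), and in GS 4 rose and 1 fell (median 0.29), where 14.7% and 18.6% of all genes rose. At 15 d 4 rose in WT, and in GS 3 rose and 2 fell, where 14.2% and 19.4% of all genes rose. Zbtb16 was among those that fell in GS at 15 d, by 0.79 ± 0.26, where 17.6% of all genes fell. No gene of the list passed between genotypes or in the interaction, so the counts of 3 and 7 do not show a difference between WT and GS.

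Of 10 hypoxia-responsive genes, another set linked to Ddit4, none rose and 1 fell in WT at 6 h, and 1 rose and 2 fell in GS. Vegfa, an angiogenic factor, fell by 0.58 ± 0.099 in WT and 0.38 ± 0.098 in GS at 6 h. At 3 d 5 rose in WT and 1 in GS, with Pfkfb3, an activator of glycolysis, higher by 1.16 ± 0.073 in WT and 0.84 ± 0.072 in GS. At 15 d 3 rose and 5 fell in WT, and 2 rose and 5 fell in GS. Of all genes, 14.2% rose and 11.2% fell in WT at 15 d, and 19.4% and 17.6% in GS. At 3 d 14.7% and 18.6% of all genes rose, and at 6 h 1.55% and 6.37% fell and 7.47% rose in GS. No gene of this list passed between genotypes or in the interaction. The counts of 5 and 1 at 3 d thus do not show a difference between WT and GS. Egln3, an oxygen sensor, rose by 1.52 ± 0.24 in WT and 1.78 ± 0.24 in GS at 15 d.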
